A study of Mus musculus with 2 samples.

Results

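Genes of the interferon response and of antigen processing were followed in 2 hepatocellular carcinoma samples of mice treated with DEN (diethylnitrosamine, a liver carcinogen). One tumour was wild-type and the other HLF-deficient, which means that it lacked a liver transcription factor of the PAR bZIP family; both groups received the carcinogen. How HLF was removed, the strain, sex and age of the mice, the dose and timing of DEN, and whether tissue was pooled are not given in the sources used here. RNA was read on Affymetrix arrays, 1 array per genotype. The genes were listed by name: 42 were listed, and 37 had a probe set (a group of array probes summarised to 1 value) naming that gene alone, out of 19938 genes measured in this way. Isg15, Ifi44, Gbp2, Gbp6 and Igtp had no such probe set and have no value here.

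Interferons are secreted proteins that warn cells of viruses and other intracellular microbes. Type I interferons act through a complex that holds Stat2 and Irf9 and binds the interferon-stimulated response element to switch on antiviral effector genes; interferon-gamma, made by T and NK cells, acts at gamma-activated sites and through Irf1. The gamma response is known for raising the immunoproteasome, the TAP peptide transporter and the GTPases that attack microbial vacuoles, so that more peptides are cut, carried into the endoplasmic reticulum and shown on MHC class I to cytotoxic T cells. In liver, hepatocytes, Kupffer cells and sinusoidal endothelial cells all respond to interferons.

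Promoter sequences are shown first, because known regulatory letters recur in some members and not in others, among members whose values differed. They come from RefSeq (build GRCm38.p6), run 5′ to 3′ on the strand of the named gene, and lie upstream of its start; capitals mark exact matches to the core of the interferon-stimulated response element (GAAA, any 2 bases, GAAA) on either strand, and to TTCNNNGAA, the gamma-activated site, which reads alike on both strands. The stretches are chr17:34187331-34187555 (+ strand) for Tap1, which is the whole of the 225 bases between the divergent starts of Tap1 and Psmb9; chr3:142530221-142530301 (+) for Gbp7; chr11:48871425-48871480 (-) for Irgm1; chr17:34198080-34198135 (+) for Psmb8; chr11:53769904-53769954 (+) for Irf1; chr19:34640774-34640824 (+) for Ifit1; chr5:120777704-120777754 (-) for Oas3; and chr2:122147537-122147577 (+) for B2m. The first 4 precede genes with large positive values (for the first stretch, Psmb9 as well as Tap1), and the last 4 precede genes whose values were small or negative; the stretches were chosen with these values known.
Tap1: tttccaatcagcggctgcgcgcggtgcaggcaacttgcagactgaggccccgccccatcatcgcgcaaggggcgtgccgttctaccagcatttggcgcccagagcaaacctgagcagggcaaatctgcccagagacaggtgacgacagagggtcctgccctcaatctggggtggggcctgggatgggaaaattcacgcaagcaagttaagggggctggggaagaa
Gbp7: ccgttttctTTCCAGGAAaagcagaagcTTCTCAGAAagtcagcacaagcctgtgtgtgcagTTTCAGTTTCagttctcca
Irgm1: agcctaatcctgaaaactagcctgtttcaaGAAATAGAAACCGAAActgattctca
Psmb8: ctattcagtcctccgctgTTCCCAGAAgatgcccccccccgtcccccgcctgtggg
Irf1: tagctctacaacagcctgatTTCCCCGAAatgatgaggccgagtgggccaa
Ifit1: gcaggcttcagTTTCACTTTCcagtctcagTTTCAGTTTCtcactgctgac
Oas3: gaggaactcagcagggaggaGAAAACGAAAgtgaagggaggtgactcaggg
B2m: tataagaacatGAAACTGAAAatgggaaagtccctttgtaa

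Levels are the authors' RMA summaries of the probes, on a log2 scale. A difference is HLF-deficient minus wild-type, so that 1 is 2-fold. The floor of expression was a log2 level of 2.98, the 95th percentile of 1248 probe sets for chemoreceptors (smell, pheromone and taste), which serve here as genes with little or no liver expression. With 1 array per genotype there is no test, no SD and no p-value between tumours, and this number of arrays is what limits precision; genes past 2-fold or 1.5-fold are counted instead. As a guide to the spread between probe sets, the difference of a single probe set had an SD of 0.23. It was estimated from the disagreement of the 2 brightest probe sets over 715 genes. This SD leaves out all variation between mice and tumours, and any effect of an array or RNA sample that the probe sets of a gene share. Across the 14575 genes that reached the floor on 1 array or both the median difference was 0.07. Hlf itself went from 5.13 in the wild-type to 3.79 in the other tumour, the direction its label gives. The level of 3.79 was still above the floor.

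Of the 37 members with a value, 36 were compared and 31 of these had a higher level in the HLF-deficient tumour, against 58.2% of all genes compared; with the arrays centred 33 were, against 71.3%, and under quantile normalization 29, against 53.6%. Their median difference was 0.30. Past 1.5-fold, 10 of the 36 were higher, against 6.37% of all genes, and 1 was lower, against 3.11%. Past 2-fold, 2 were higher, Gbp7 and Tap1, against 1.5% of all genes, and 0 were lower, against 0.364%. Mx1, an antiviral dynamin-like GTPase, had levels of 2.33 and 2.06, both under the floor, and was left out of these counts. The positive values were unevenly spread over the roles: all 3 immunoproteasome subunits, both TAP subunits, Gbp7, Irgm1, Usp18, Parp14 and Mx2 made up the 10 past 1.5-fold, while the other 11 antiviral effectors compared and the light chain B2m were under it. The number past 1.5-fold depended on the scaling, with 5 higher under quantile normalization, against 5.12% of all genes, and 11 with the arrays centred on their medians, against 11.5%.

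**Figure D1:**
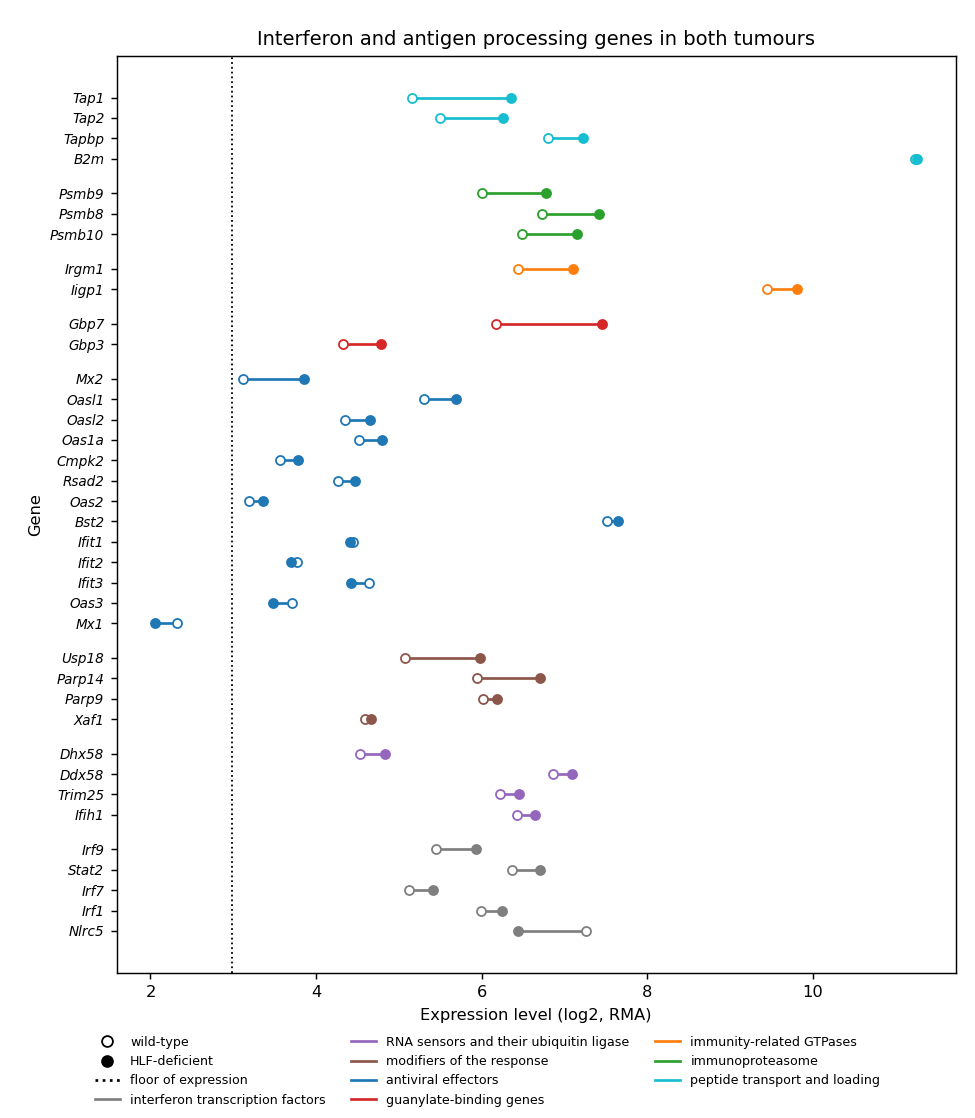
Log2 level of each of the 37 members on the wild-type array (open circles) and the HLF-deficient array (filled circles), grouped by role; the dotted line is the floor of 2.98. Tap1 and Gbp7 have the longest lines to the right, Nlrc5 the longest to the left, and most antiviral effectors move little.

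The transcription factors that carry the interferon signal were mostly a little higher in the HLF-deficient tumour. With Nlrc5 they number 5, of which 4 were higher, against 58.2% of all genes. Their median was 0.30, near the 0.22 of 4039 genes of like level, and it was 0.14 under quantile normalization. Irf9, the DNA-binding subunit of the type I complex, went from 5.45 in the wild-type tumour to 5.93 without HLF, a difference of 0.48. Stat2, its partner in that complex, was at 6.37 and 6.70, a difference of 0.34. Irf7, which amplifies type I interferon production, was at 5.12 and 5.42. These 3 genes, which belong to the type I arm, all stayed under 1.5-fold. Irf1, a main factor of the gamma response and itself a gene with a gamma-activated site in the stretch printed above, was at 5.99 and 6.25, a difference of 0.25, and its second, dimmer probe set gave 0.26. All 4 differences kept their sign under each scaling, with the lowest for Irf1 at 0.06, and none of the 4 reached 1.5-fold except Irf9 with the arrays centred, at 0.60.

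Nlrc5, the transactivator of MHC class I genes, was the one factor with a lower value, but its probe sets disagreed. The brightest, which the rule for a gene takes, had a wild-type level of 7.26 and an HLF-deficient level of 6.44, which is a difference of -0.82. The gene has 19 probe sets, and the other 18 ranged from -0.49 to 0.46 with a median of 0.08. Of all 19, 12 were positive and 7 negative, and their mean was -0.02. The lower value of Nlrc5 therefore rests on 1 probe set; without it no member was lower by 1.5-fold.

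**Figure D2:**
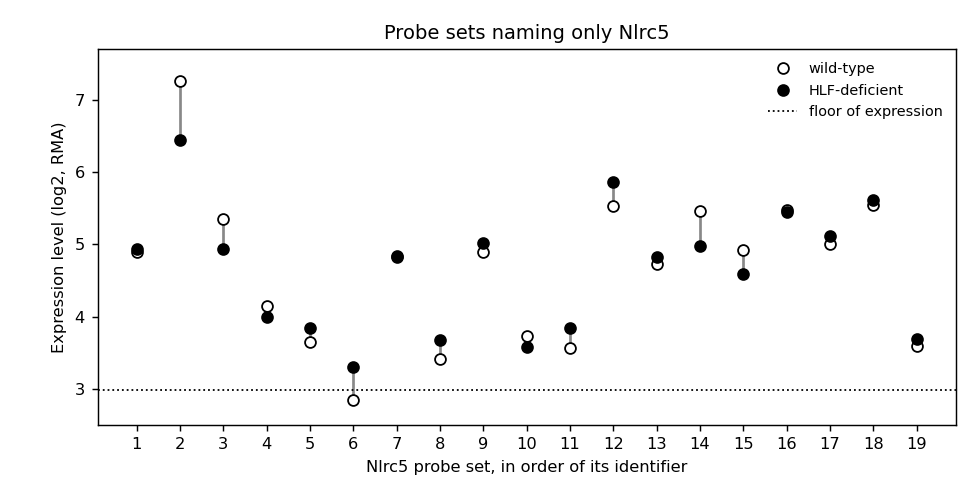
Log2 level of the 19 probe sets naming only Nlrc5 on the wild-type array (open circles) and the HLF-deficient array (filled circles), in order of probe set identifier; the dotted line is the floor of 2.98. The probe set with the highest level differs by -0.82, and the other 18 lie within 0.5 of their wild-type value, in both directions.

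The sensors of viral RNA moved together by small amounts. Ddx58 (RIG-I) was at 6.86 and 7.09, Ifih1 (MDA5) at 6.42 and 6.64, and Dhx58 (LGP2), which tunes the other two, at 4.53 and 4.83. Trim25, the ubiquitin ligase that activates RIG-I, was at 6.22 and 6.45. The 4 differences lay between 0.22 and 0.30, with a median of 0.23. Genes of like level, 6127 in number, had a median of 0.21, so these sensors lay about where other genes of their brightness did, and after loess normalization their median was 0.07.

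Antiviral effectors, the genes whose products block viral replication, were close to level between the tumours. Of 15 listed, 12 were compared. Of these, 8 were higher and 4 lower, while 58.2% of all genes were higher. The effectors had a median of 0.19 and a range from -0.23 to 0.73. For 8 of the 12 the difference was smaller than the 0.23 SD of a probe set. The IFIT genes, which bind foreign RNA and block its translation, had values just below 0. Ifit1 was at 4.45 and 4.41, Ifit2 at 3.77 and 3.69, and Ifit3 at 4.64 and 4.43. Differences of this kind, -0.04, -0.07 and -0.21, are smaller than the 0.23 SD of a probe set. The value of Ifit1 turned positive with the arrays centred and that of Ifit2 under centring, quantile and loess scaling.

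The OAS genes make the 2′-5′ oligoadenylates that activate RNase L. Oas1a was at 4.52 and 4.79 and Oas2, near the floor, at 3.19 and 3.35. Oas3 was at 3.71 and 3.48, a difference of -0.23, the lowest among the effectors. The related Oasl1, which restrains Irf7 translation, was at 5.31 and 5.68, and Oasl2 was at 4.34 and 4.65. So the family gave 4 positive values and 1 negative, and its largest difference was 0.38. Of all genes compared, 58.2% were positive, and 71.3% with the arrays centred.

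Mx2, a dynamin-like GTPase, was the one effector past 1.5-fold. Its wild-type level of 3.12 was close to the floor and its HLF-deficient level was 3.85, giving a difference of 0.73 that lay between 0.73 and 0.88 under the alternatives. Rsad2 (viperin), an enzyme that makes a chain-terminating nucleotide, was at 4.26 and 4.47. Cmpk2, a nucleotide kinase encoded beside it, was at 3.56 and 3.78. Both genes thus differed by little, 0.21 and 0.22. Bst2 (tetherin), which holds budding virus at the cell surface, was at 7.51 and 7.64, a difference of 0.13 that turned to -0.03 under quantile normalization and -0.02 after loess.

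Among the modifiers of the response, Usp18 and Parp14 were higher. Usp18, the protease that removes the ubiquitin-like Isg15 from proteins and also dampens signalling at the type I receptor, was at 5.07 and 5.98, a difference of 0.91 or 1.88-fold, exceeded among the members by Gbp7 and Tap1. It passed 2-fold with the arrays centred, at 1.03. Parp14, an ADP-ribosyltransferase, was at 5.94 and 6.71, a difference of 0.76. Its relative Parp9 was at 6.01 and 6.19, with the sign turned under quantile normalization (-0.02), and Xaf1, a pro-apoptotic interferon-induced gene, at 4.59 and 4.66. The group therefore split into a pair past 1.5-fold and a pair at 0.17 and 0.08, and under quantile normalization Parp14 fell just short of 1.5-fold at 0.56.

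The guanylate-binding and immunity-related GTPases, which coat and break vacuoles that hold microbes, all had positive values. So did 58.2% of all genes compared, and 71.3% with the arrays centred. Gbp7 had a wild-type level of 6.17 and an HLF-deficient level of 7.45, a difference of 1.28 or 2.43-fold, the largest of all members and the 110th of the 14575 genes compared. Gbp3 was at 4.32 and 4.78, a difference of 0.46. Irgm1, a regulator of the other immunity-related GTPases, was at 6.44 and 7.10, a difference of 0.66. Iigp1, an effector of the same family, was at 9.44 and 9.80, a difference of 0.36. Gbp7 was the one gene of these 4 that stayed past 1.5-fold under every scaling; Irgm1 was at 0.48 under quantile normalization. The Gbp genes resemble each other closely, so the value of 1 may include signal from its relatives.

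The 3 catalytic subunits of the immunoproteasome were higher by similar amounts. Psmb9 (LMP2) was at 6.0 and 6.78, a difference of 0.77. Psmb8 (LMP7) was at 6.73 and 7.41, a difference of 0.69. Psmb10 (MECL-1) was at 6.48 and 7.15, a difference of 0.67. All 3 were thus past 1.5-fold and within 0.11 of each other, while 1341 genes of like level had a median of 0.24.

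Their constitutive counterparts, which they replace in the proteasome core, did not follow. Psmb6, replaced by Psmb9, was at 8.77 and 8.96, a difference of 0.19. Psmb7, replaced by Psmb10, was at 8.33 and 8.21, a difference of -0.13. Psmb5, replaced by Psmb8, was at 6.81 and 6.69, a difference of -0.12. The immunoproteasome subunit's difference exceeded that of its counterpart by 0.58 for Psmb9, 0.79 for Psmb10 and 0.80 for Psmb8. The other 11 core subunits had a median of 0.05 (-0.07 under quantile normalization), from -0.19 in Psmb3 to 0.25 in Psma2. Past 1.5-fold, 0 of them were higher, against 6.37% of all genes, and 0 lower, against 3.11%. Of the activators, which cap the core, Psme1 and Psme2, the interferon-inducible PA28 pair, differed by 0.19 and 0.22; Psme4 was highest at 0.42 and Psme3 lowest at 0.11. Under quantile normalization the immunoproteasome median was 0.51 and that of its counterparts -0.24, and with the arrays centred the medians were 0.81 and 0.0034, a similar distance each time. The count past 1.5-fold depended on the scaling: 0 of the 3 immunoproteasome genes passed it under quantile normalization and 1 of 3 after loess.

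**Figure D3:**
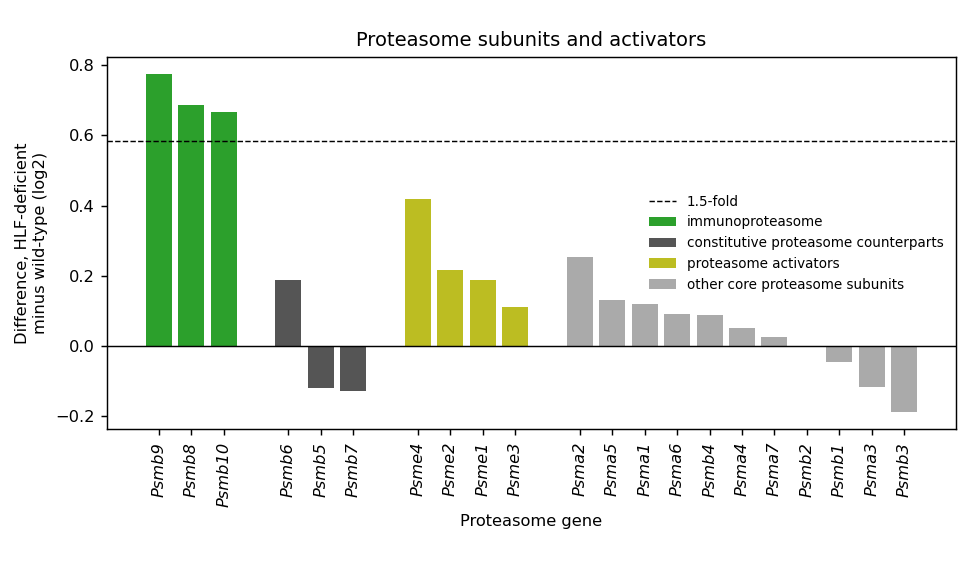
Difference (log2, HLF-deficient minus wild-type) for the immunoproteasome subunits, their constitutive counterparts, the proteasome activators and the other core subunits, 1 bar per gene; the dashed line is 1.5-fold. The 3 immunoproteasome bars, 0.67 to 0.77, pass the line and no other bar does.

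The genes that carry peptides to MHC class I were also higher in the HLF-deficient tumour, apart from the light chain. Tap1, a subunit of the peptide transporter, had a wild-type level of 5.16 and an HLF-deficient level of 6.36, a difference of 1.20 or 2.30-fold. Tap2, its partner, had levels of 5.5 and 6.26, a difference of 0.76. Tapbp (tapasin), which bridges the transporter and the class I molecule, was at 6.79 and 7.22, a difference of 0.43. B2m, the light chain of class I, was at 11.23 and 11.26. The 2 transporter subunits were thus past 1.5-fold, tapasin was under it, and the light chain differed by 0.03, or -0.02 under quantile and loess normalization. Of the class I heavy chains and loading factors, 7 of 10 were compared. Past 1.5-fold, 0 of them were higher, against 6.37% of all genes, and 0 lower, against 3.11%. Erap1, the peptidase that trims peptides in the endoplasmic reticulum, was highest at 0.41. H2-Q10, a liver class I gene, was lowest at -0.02, or 0.11 with the arrays centred and -0.12 under quantile normalization. H2-K1, H2-D1 and H2-T23 had no probe set of their own.

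Psmb9, Tap1, Psmb8 and Tap2 are 4 consecutive protein-coding genes of the MHC class II region in the RefSeq gene order, a neighbourhood examined after the values were seen. Their differences, in that order, were 0.77, 1.20, 0.69 and 0.76. The 7 compared genes among the 5 neighbours on either side ranged from -0.30 to 0.93 with a median of -0.17. H2-Ab1, a class II gene, gave the highest of these, with levels of 6.08 and 7.01, while H2-Ob, which lies between it and Tap2, was at 3.36 and 3.06. Positive and negative values thus lay side by side in this region, and the part of level in this was not tested. The negative neighbours H2-Oa, H2-DMa, H2-Ob and H2-Eb1 were dim, with wild-type levels of 3.21, 4.09, 3.36 and 3.57. All genes with a mean level up to 4 had a median of -0.18. The positive neighbours H2-Ab1, H2-Aa and Brd2 were brighter, at 6.08, 6.90 and 5.86 in the wild-type tumour, with differences of 0.93, 0.39 and 0.33. For comparison, all genes with a mean level between 6 and 7 had a median of 0.24.

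Set against each other, the antiviral effectors and the genes of antigen processing and guanylate binding differed in their medians. The 7 compared genes of the immunoproteasome, TAP and GBP group had a median of 0.76, with 6 past 1.5-fold upwards, and the 12 effectors one of 0.19, with 1 past it, against 6.37% of all genes. Under quantile normalization 3 of the 7 were past 1.5-fold, against 5.12% of all genes, and after loess 4 were, against 5.34%. The lowest processing gene, Gbp3 at 0.46, was above 11 of the 12 effectors, and Mx2 was the exception. This group leaves out Tapbp, B2m and the immunity-related GTPases; with them it held 11 genes with a median of 0.67, and its lowest gene, B2m, was above 4 of the 12 effectors. The effector median minus the processing median was -0.57. Genes are not replicates, so no test was made of it, and its size depended on the scaling: it was -0.34 under quantile normalization and -0.35 after loess, with 11 of 12 effectors still below the lowest processing gene each time. The difference between arrays also moved with level over all genes, from a median of -0.18 in the 4026 genes with a mean level up to 4 to 0.24 in the 2151 genes between 6 and 7, and the effectors were on average dimmer, at 4.36 in the wild-type tumour against 5.77 for the processing genes.

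**Figure D4:**
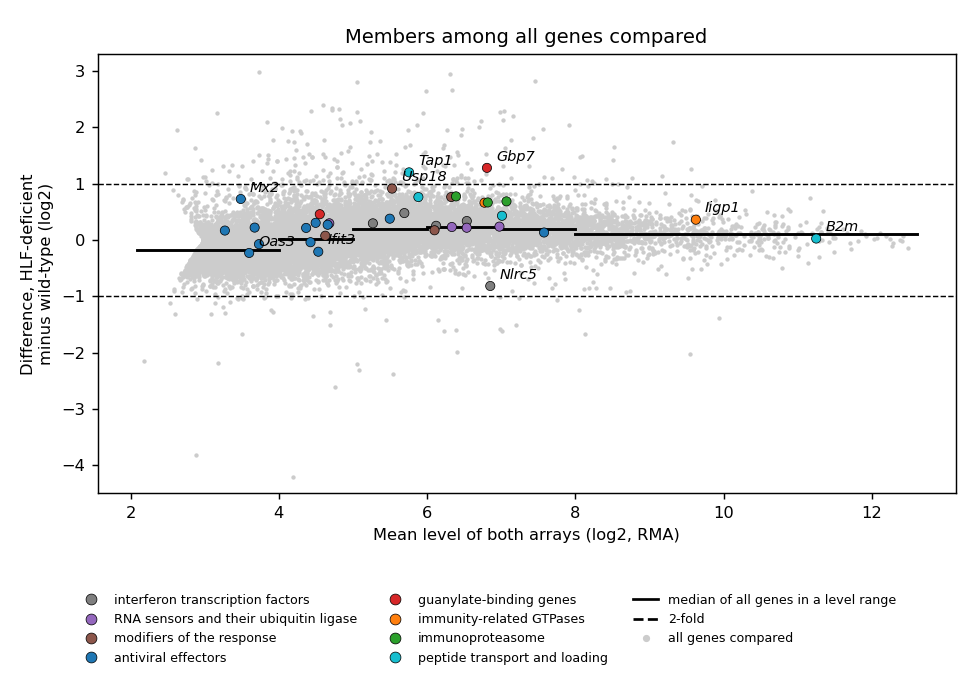
Difference (log2, HLF-deficient minus wild-type) against the mean level of both arrays for the 14575 genes compared (grey) and the 36 members among them (coloured by role); short black lines are the medians of all genes within a range of levels and dashed lines mark 2-fold. Gbp7 and Tap1 lie above 2-fold, and the antiviral effectors lie at lower levels than most other members.

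**Figure D5:**
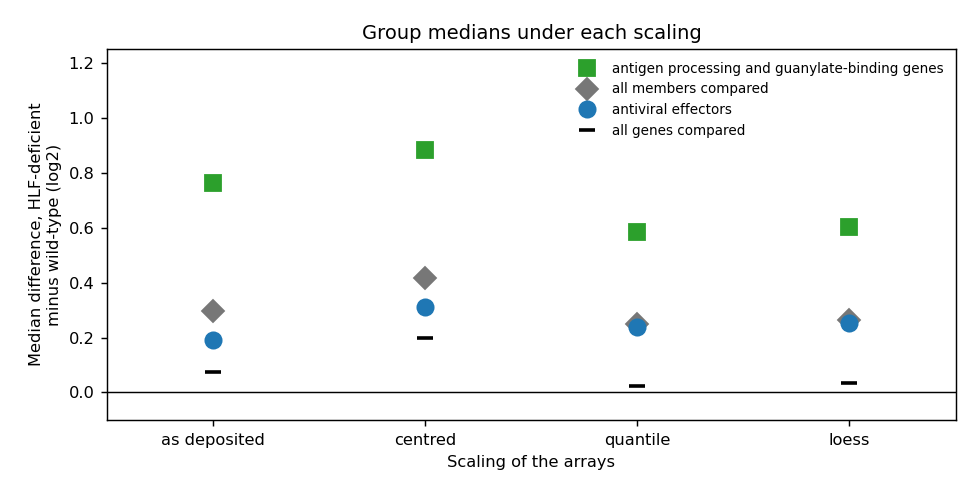
Median log2 difference of the antigen processing and guanylate-binding genes (squares), all 36 members compared (diamonds), the antiviral effectors (circles) and all genes compared (dashes), with the values as deposited and under 3 other scalings. The processing genes stay between 0.58 and 0.88 and the effectors between 0.19 and 0.31.

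The printed promoter letters were common among the members and were found on both sides of this contrast. A promoter window of 250 bases before to 50 after the start was held by the RefSeq table for 31 of the 42 members. The response element core was in the windows of 16 of the 31, and in 16 of their 35 windows, against 3.44% of all 32851 windows. All 5 GTPase genes with a window had it, as did 7 of 12 effectors, but 1 of 6 genes of the immunoproteasome and of peptide transport and loading, B2m. TTCNNNGAA was in 7 of the 35 member windows, against 8.30% of all windows. Gbp7 held both motifs, with matches at -106 and -87 for the gamma-activated site and at -53 for the response element, counted from the start. Ifit1 held the response element core at -104 and -85, and its difference was -0.04; Psmb8 held a gamma-activated site at -97. The 225 bases shared by Tap1 and Psmb9, with a GC content of 61.3%, held neither string. The 13 compared members with the response element core had a median difference of 0.22, and the 14 without it 0.34, which is a description of letters in a short window and not of binding.

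Upstream of the members, the 3 interferon genes compared had negative values as deposited, whereas several receptor and signalling genes had positive ones. Ifng was at 3.46 and 3.32, near the floor, and its difference of -0.13 turned to 0.03 under quantile normalization and 0.02 after loess. Ifnb1 lay under the floor in both tumours. The lowest of the 3 was Ifnl2 at -0.51, which became -0.70 under quantile normalization, past 1.5-fold downwards. Of 6 receptor genes, 5 were higher as deposited, against 58.2% of all genes. All 6 were higher under centring, quantile and loess scaling, against 71.3%, 53.6% and 55.1% of all genes. Il10rb, the subunit shared by the interferon-lambda and interleukin-10 receptors, was at 5.81 and 6.89, a difference of 1.08, and Ifnlr1, the other lambda subunit, was lowest at -0.07, or 0.09 under quantile normalization. Ifnar2, Il10rb, Ifnar1 and Ifngr2 are consecutive genes, an order looked at after the values were seen, with differences of 0.56, 1.08, 0.34 and 0.35. The 8 compared genes around them had a median of 0.16.

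Among the kinases and STAT factors measured, Stat3, which carries interleukin-6 signals, was highest at 0.79 and Jak1, a kinase of all interferon receptors, lowest at 0.27. Of the feedback inhibitors, Socs3 was highest at 0.80, with a second probe set at -0.14, and Socs1, the inhibitor of interferon-gamma signalling, was lowest at -0.13. Of 9 sensing and signalling genes compared, 2 were higher past 2-fold, against 1.5% of all genes, and 0 lower, against 0.364%. The 2 were Tlr3, the receptor for double-stranded RNA, at 1.05 and Myd88, the adaptor of most other toll-like receptors, at 1.03. Tlr9 was lowest at -0.20. Of 4 other interferon factors, Irf2 was highest at 0.31 and Batf2 lowest at -0.23.

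A separate list of 20 other interferon-induced genes had a median of 0.46 over the 16 compared, with 7 past 1.5-fold upwards, against 6.37% of all genes, and 0 downwards, against 3.11%. Rtp4, a chaperone of receptors, was highest, with levels of 5.02 and 6.10 and a difference of 1.09, and Ifitm1, a membrane protein that blocks viral entry, was lowest at -0.27, but its 2 probe sets disagreed and their mean difference was 0.04. The count of 7 was 3 under both quantile and loess normalization, against 5.12% and 5.34% of all genes. Of the chemokines that interferon-gamma induces, Cxcl10 was at 4.24 and 4.97, a difference of 0.74, while Cxcl9 and Cxcl11 were both at -0.05. The value of Cxcl9 was 0.07 with the arrays centred and -0.24 under quantile normalization. Over all 75 genes of these lists that were compared, 15 were higher by 1.5-fold, against 6.37% of all genes, and 0 were lower, against 3.11%; the median was 0.18. Under quantile normalization 9 were higher, against 5.12% of all genes, and 1, Ifnl2 at -0.70, was lower, with a median of 0.09.

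Markers of cells that make or answer interferons were read beside these values, since in bulk tissue fewer cells of a type and less RNA per cell cannot be told apart. Macrophage and Kupffer cell markers were higher in 6 of 8, against 58.2% of all genes (71.3% with the arrays centred, when the markers were again 6 of 8), with mean log2 levels of 5.85 (wild-type) and 6.38 (HLF-deficient); Cd14 and Cd68 differed by 1.86 and 1.53 and Clec4f, a Kupffer cell marker, by -0.37. Endothelial markers were higher in 5 of 6 (all 6 with the arrays centred), with mean levels of 6.03 and 6.77, from -0.06 in Stab2 to 1.21 in Lyve1. The macrophage and endothelial medians were 0.45 and 0.88, against 0.20 and 0.23 in genes of like level. The part of these cells in the differences of the members was not tested. Of 12 T and NK cell markers 7 were compared, with mean levels of 3.68 and 3.52. Their values ran from -0.43 in Cd3e to 0.12 in Cd4, with a median of -0.17, near the -0.13 of genes of like level. Cd3d, Klrd1, Ncr1 and Gzmb were below the floor on both arrays. Siglech, the defining marker of plasmacytoid dendritic cells, was at 3.34 and 3.27, and Ccr9 of the same list was below the floor on both arrays. Of the 3 genes compared in this list 2 were past 1.5-fold upwards, against 6.37% of all genes. Ly6d was highest at 0.99, but its levels of 8.08 and 9.07 were far above those of Siglech. Markers of B and plasma cells, conventional dendritic cells and neutrophils had medians of -0.10, -0.09 and -0.16. Genes of like level had medians of 0.10, -0.16 and -0.09 in the same order. Hepatocyte markers, which check the tissue, had mean levels of 11.73 and 11.86, with Alb lowest at -0.15 and Cyp2e1 highest at 0.51.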

How the data were processed

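Total RNA of the wild-type and of the HLF-deficient tumour sample was labelled as biotinylated cDNA with an Affymetrix kit, per the labels' protocols. The authors summarised the probes by RMA with the program Affymetrix Expression Console, per the submitters' processing notes. Those notes do not state the scale of the deposited values, which was taken as log2 from their range of 0.25 to 12.74; RMA compresses differences near background, and the set of arrays it was run on is not stated. Of the probe sets, 21789 name 1 gene, in the platform's annotation, 1621 several and 12146 none, and those naming 1 gene were used, the one with the highest mean for each gene. Size rules stand in for tests, which 1 array per genotype does not allow. The members, lists, role groups and motifs were chosen with earlier results of these data known. Every member was named, and from each other list the highest, the lowest and any gene past 2-fold, with all 6 paired proteasome subunits. All 42 member symbols were found in the RefSeq table of GRCm38.p6. The alternatives were centring, quantile and loess scaling (span 0.4), the mean over probe sets, floors at the 90th and 99th percentile or none, values set to the floor, list means and other groupings. The size rules and scalings were tried only on simulated data with less noise than the SD of a probe set estimated here. The shift planted for the scalings was the same at every level, so a difference that moves with level was not covered. Python 3.11.15, pandas 2.3.3 and statsmodels 0.14.6 were used.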

Additional observations from a re-analysis of the deposited data

How the results depend on the processing

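No paired analysis was possible because each genotype had 1 array, and no replicate could be left out. Of 36 members, 31 kept the sign of their difference in all settings of scaling, probe set and floor, and B2m, Bst2, Ifit1, Ifit2 and Parp9 did not. Gbp7, Tap1, Tap2, Usp18 and Mx2 stayed past 1.5-fold in all of them. Members higher by 1.5-fold numbered 5 under quantile normalization in place of 10, and with the mean over probe sets 0 were lower by 1.5-fold in place of 1, Nlrc5 then being at -0.02. The median of the members ranged from 0.25 to 0.42, and the effector minus processing median from -0.68 with list means to -0.34 under quantile normalization. Centring adds 0.12 to every difference. Values near the floor, as for Oas2 and Mx2, have little signal over background.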
